A study of Rattus norvegicus with 15 samples.

Results

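Odorant binding proteins and lipocalins are small secreted carriers, and their transcripts were followed here through every probe of a whole-genome rat array that was named Obp1f, Obp3 or Lcn2 or whose description held the words odorant binding or lipocalin. The rule used names and descriptions and no measured value. It found 10 of the 41012 probes on the array, for 9 gene names of 35581 in all, since Obp1f had 2 probes. The arrays measured RNA of the olfactory epithelium, the sensory lining of the nasal cavity, of untreated Brown Norway rats, 4 males and 4 females aged 6 weeks at purchase and kept for a further week, with no genetic change or drug in any group. Both nostrils, called A and B, were hybridized for 7 rats and nostril A alone for male 1, which gave 7 male and 8 female arrays. The sample left out for RNA quality was a left one by the protocol, so nostril A of male 1 was its right, and the labels name no side for A or B in the other rats. The 2 nostrils of a rat share 1 animal, so animals were taken as the replicates.

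Lipocalins are secreted proteins folded into a barrel whose cavity holds a small hydrophobic ligand. Odorant binding proteins are the lipocalins of nasal mucus, made mainly by glands of the nose and thought to carry volatile molecules through the mucus to and from the olfactory receptors. Other members of the family serve elsewhere: the alpha-2u globulins, or major urinary proteins, carry pheromones in rodent urine and also occur in nasal and lacrimal glands, and Lcn2 binds the iron-carrying siderophores of bacteria as part of innate defense.

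Levels are given as log2 of the signal over the median signal of the array, so that 0 is a transcript as bright as the median probe. Values under 0.1 of the median were raised to it, which sets a floor of -3.32 at which values have no order. Median signals of the 15 arrays ran from 57.4 to 83.4 intensity units, and 26233 to 28741 probes per array were called well above background by the scanner software. There were 4 slides: males 1 and 2 were read on slide 1, female 4 on slide 2, males 5 and 6 on slide 3, and females 7 and 8 on slide 4. Female 3 alone was divided, with A on slide 1 and B on slide 2, so that every other rat with both nostrils had them side by side. Tissue markers were as the label says on every array: Omp, the marker of mature olfactory neurons, and Cyp2g1, a detoxifying enzyme of the olfactory mucosa, were detected on all 15. The dissected tissue holds neurons, supporting cells and glands together, and in such bulk RNA fewer cells of a type and less RNA per cell cannot be told apart.

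Of the 10 probes, 6 were expressed by the study's criterion, detection on at least 11 of the 15 arrays, which 26686 of 41001 probes with a value for every rat also met. These were both probes of Obp1f and those of Obp3, Obp2b, Lcn2 and Lcn7. LOC687446, a predicted gene described on the array as similar to vomeronasal secretory protein 2 and lipocalin 4, was detected on 10 arrays. The remaining 3 probes were seen rarely or never: Lcn9 was well above background on 3 arrays, Lcn6 on 1 and Lcn8 on 0. None of the 10 probes was saturated or marked as an outlier spot on any array. The 7 probes detected on at least 7 arrays entered the tests. Lcn7 carries a lipocalin name only in the array annotation, since RefSeq now calls the accession of its probe Tinagl1, a gene outside the lipocalin family.

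The tested members other than Lcn7 are shown by the probes that read them, because the sequence decides which transcript a spot reports and the family holds close copies. Each probe is 60 bases long and is printed 5′ to 3′ in the sense direction with no part marked. Only the first 30 bases are shown for Lcn2.
Obp1f, minus-strand probe, rn3 chrX:63744329-63744388: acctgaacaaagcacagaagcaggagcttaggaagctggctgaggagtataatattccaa
Obp1f, plus-strand probe, rn3 chrX:63680086-63681918: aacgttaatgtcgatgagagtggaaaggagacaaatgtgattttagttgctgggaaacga
Obp3, rn3 chr5:78095776-78095835, minus strand: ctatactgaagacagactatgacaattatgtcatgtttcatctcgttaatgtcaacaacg
Obp2b, rn3 chr3:3936682-3936741, plus strand: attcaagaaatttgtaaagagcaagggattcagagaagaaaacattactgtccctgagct
LOC687446, rn3 chr3:5310133-5310421, plus strand: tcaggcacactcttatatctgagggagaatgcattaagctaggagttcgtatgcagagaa
Lcn2, rn3 chr3:11407964-11408023, minus strand: caatgcattgacaactgaacagacggtgag

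Positions are those of the array annotation in build rn3, which does not mark exons or untranslated regions. The placement of the plus-strand Obp1f probe covers 1833 bases and that of the LOC687446 probe 289 bases, more than their own length, so the annotation splits both across a gap in the genome. Obp1f lies on X, Obp3 on chromosome 5, and Obp2b, LOC687446, Lcn6, Lcn8, Lcn9 and Lcn2 on chromosome 3.

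Obp1f, which encodes an odorant binding protein of nasal gland secretion, had levels from far above the array median to below detection. On the minus-strand probe the level was 2.59 in male 1, 3.58 and 3.86 in nostrils A and B of male 2, 2.09 and 6.74 in male 5, and -1.96 and 1.55 in male 6. In females it was 4.33 and 4.31 in rat 3, 3.65 and 4.46 in rat 4, 6.66 and 7.07 in rat 7, and 4.06 and 7.06 in rat 8. Nostril A of male 6 was the only array not well above background, and the 4 brightest arrays were nostril B of male 5, both nostrils of female 7 and nostril B of female 8. The plus-strand probe ranged from the floor to 5.85 and followed the first with r = 0.996 over the 15 arrays, although the 2 probes have different sequences and were placed on opposite strands. The annotation puts them at separate places on X, and whether both read 1 gene was not tested.

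Obp3, an alpha-2u globulin also named odorant binding protein 3, had a level of 1.75 in male 1, -0.18 and 0.42 in nostrils A and B of male 2, -0.93 and 4.12 in male 5, and the floor and -1.23 in male 6. In females it was 1.11 and 0.21 in rat 3, -0.57 and 0.40 in rat 4, 2.98 and 3.62 in rat 7, and 0.20 and 3.07 in rat 8. The 4 arrays highest for Obp1f were also the 4 highest for Obp3, and nostril A of male 6 was lowest for both.

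Obp2b, the odorant binding protein encoded on chromosome 3, was ordered differently. Its level was 7.42 in male 1, 1.91 and 5.76 in nostrils A and B of male 2, -1.65 and 7.08 in male 5, and -0.83 and 0.05 in male 6. In females it was 5.82 and 1.36 in rat 3, -0.81 and 0.71 in rat 4, -0.46 and -1.73 in rat 7, and 3.83 and 1.66 in rat 8. Male 1 and nostril B of male 5 were highest, and female 7, among the brightest for Obp1f, was among the dimmest. The probe was nevertheless well above background on all 15 arrays.

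LOC687446, whose description points to the carriers secreted by glands of the vomeronasal organ and nasal septum, had the widest range of the members. Its level was 7.57 in male 1, 4.22 and 2.84 in nostrils A and B of male 2, the floor and 7.19 in male 5, and -0.60 and -1.72 in male 6. In females it was 3.74 and -2.99 in rat 3, the floor and -0.14 in rat 4, -1.05 and the floor in rat 7, and 2.13 and -1.46 in rat 8. The difference between the lowest and highest array was 10.89 on the log2 scale, with the lowest set by the floor, so it is not a measured fold. The same 2 arrays led as for Obp2b, and 5 arrays were not well above background.

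Lcn2, the siderophore binder, and Lcn7 ranged less than the other tested members. The level of Lcn2 was 5.12 in male 1, 5.74 and 5.42 in nostrils A and B of male 2, 5.92 and 4.85 in male 5, and 5.11 and 5.18 in male 6. In females it was 5.80 and 5.64 in rat 3, 5.85 and 5.92 in rat 4, 5.15 and 5.08 in rat 7, and 5.05 and 5.08 in rat 8. The whole range of Lcn2 was 1.07 on the log2 scale, a 2.10-fold difference. Its lowest array was nostril B of male 5, and nostril B of female 4 and nostril A of male 5 were highest. Lcn7 stayed between 0.29 and 0.75.

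**Figure D1:**
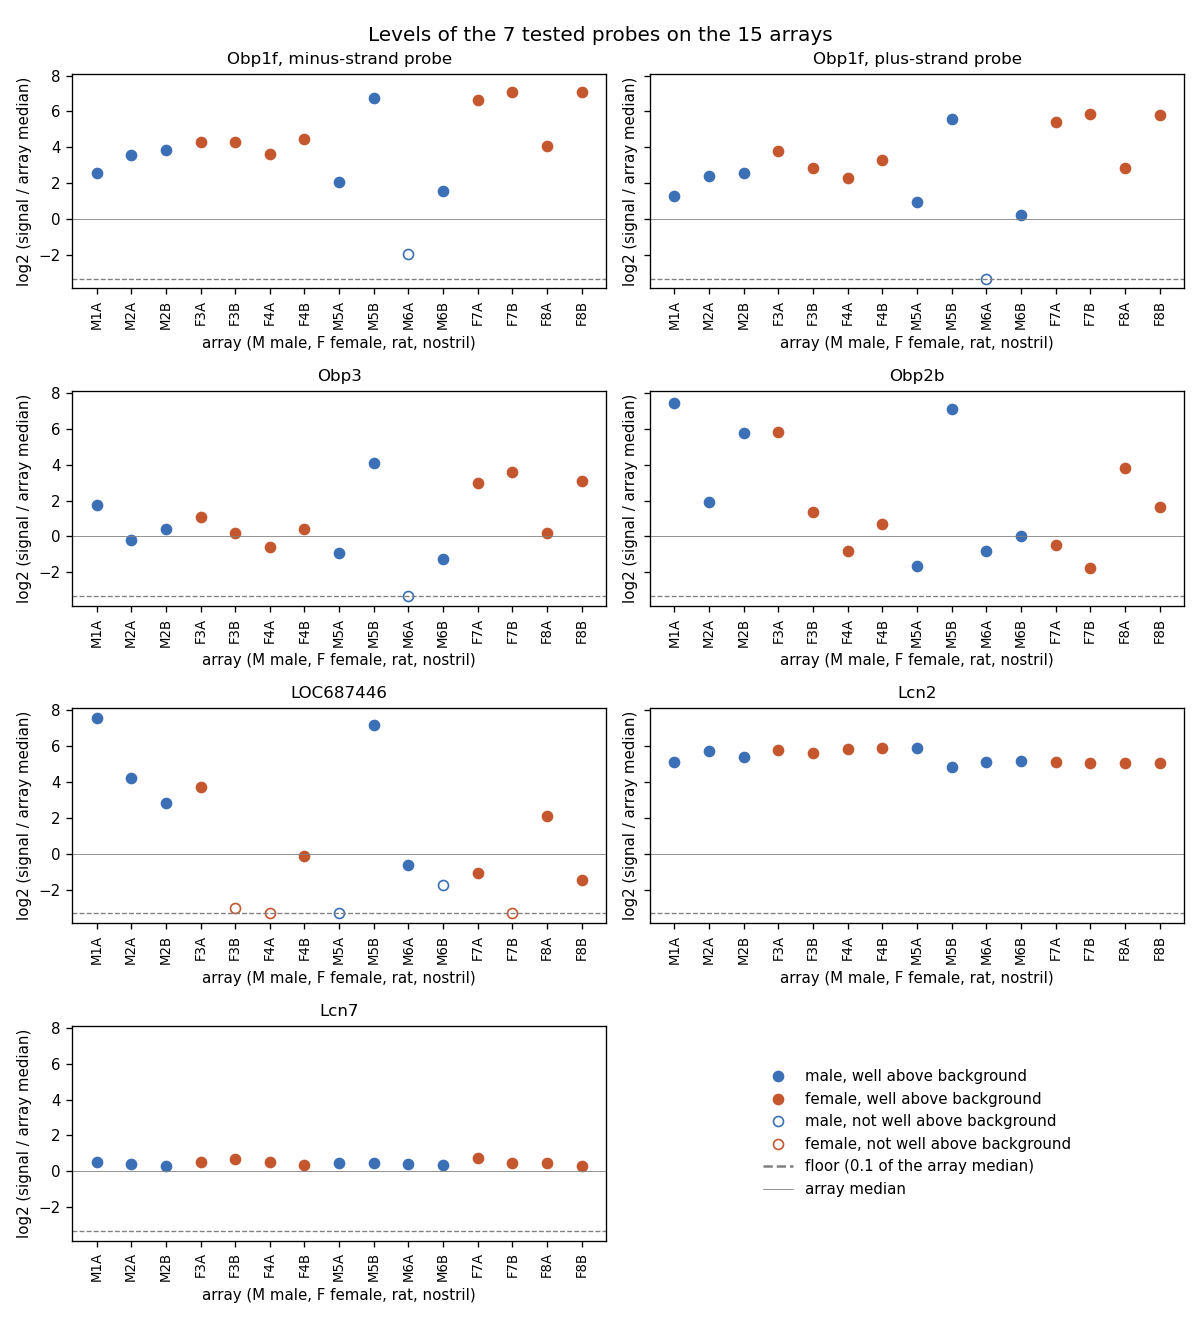
Level of the 7 tested probes on each of the 15 arrays, as log2 of the signal over the array median, with males in blue and females in orange, open points for arrays not well above background and a dashed line at the floor. Obp1f and Obp3 are highest in nostril B of male 5, both nostrils of female 7 and nostril B of female 8, Obp2b and LOC687446 in male 1 and nostril B of male 5, and Lcn2 and Lcn7 stay within 1.07 and 0.46 log2 units.

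The remaining members were seen in few animals. Lcn9 reached 1.14 in male 1 and -0.26 in nostril B of male 5, the 2 arrays that led for Obp2b and LOC687446, and -1.71 in nostril A of female 3. On the other arrays it was not well above background. Lcn6 was well above background only in nostril A of male 6, at -0.89. Lcn8 was at the floor on all 15 arrays, and the lowest signal called well above background, 10.01 to 14.49 intensity units by array, bounds what could have been seen.

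The question of a sex difference was tested with limma on rat means, over 27625 probes. At a false discovery rate of 1%, 12 probes (0.0434%) differed between females and males, and 0 of the 7 member probes did. The level of the minus-strand Obp1f probe was 5.20 ± 1.29 in females and 2.63 ± 2.03 in males (SD, n = 4 rats each). The difference was 2.57 ± 0.96 (SE) with an adjusted p of 0.219 by limma, and the plus-strand probe gave 2.65 ± 0.97 with an adjusted p of 0.213. Rats of the 2 sexes overlapped, since male 5 averaged 4.42 and female 4 averaged 4.06. The difference of LOC687446 ran the other way, at -0.80 ± 1.35 (SD) over the 4 females and 2.97 ± 3.63 (SD) over the 4 males, with an adjusted p of 0.253 by limma. These 3 probes had an unadjusted p under 0.05, as did 17.1% of all tested probes. Obp3 differed by 1.08 ± 0.94, Obp2b by -2.10 ± 1.56 and Lcn2 by 0.14 ± 0.19 (SE, female minus male), none past the threshold. Slide 1 alone held both sexes. On it the minus-strand Obp1f probe read 4.33 in nostril A of female 3 against 2.59 to 3.86 on the 3 male arrays, and LOC687446 read 3.74 against 2.84 to 7.57. Leaving out male 6 took the difference of the minus-strand Obp1f probe to 1.63 and that of Obp3 to 0.22, and leaving out female 7 took Obp3 to 0.44. Without male 1 the difference of Obp2b was -0.76 and that of LOC687446 -2.24, and without male 6 they were -3.36 and -5.15. Blood markers ran opposite to Obp1f: over the 15 arrays the minus-strand probe had r = -0.618 with Hbb, the beta-globin gene, and -0.631 with Alas2, the heme synthesis enzyme of red cells. The summed signal of the 3 tested blood probes was highest in male 6, at 1411 and 1416 times the array median in nostrils A and B, and lowest in nostril B of female 7, at 59.2. In male 5 it was 1002 and 766, where Obp1f was 25.2-fold apart. The part of blood in these levels was not tested. With slide as a block, in a fit of single arrays, the difference of the minus-strand Obp1f probe was 1.00 ± 2.24 (SE), that of the plus-strand probe 1.77, and that of LOC687446 was -1.15 ± 3.50. That fit called 468 of 27574 probes and 0 members at 1%, and a fit of the 15 arrays as independent called 1031 and 0.

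For 4 of the member genes much of the range was already present between the nostrils of 1 animal. Over the 7 rats with both nostrils, the largest difference between nostrils had a median of 0.30 on the log2 scale over 27574 tested probes. A threshold of 8-fold, 3 on that scale, was chosen after seeing the data. It was passed in at least 1 rat by 75 probes, or 0.272%, and by 5 of the 7 member probes, those of Obp1f, Obp3, Obp2b and LOC687446. Ranked by that largest difference, with values at the floor counted as they stand, LOC687446 was 1st of all tested probes, Obp2b 4th, Obp3 7th and the Obp1f probes 12th and 14th. Lcn2 was ranked 1888 and Lcn7 13676. Just inside the threshold among members lay the plus-strand Obp1f probe at 4.59, and the next below was Lcn2 at 1.07.

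Male 5 set the largest difference for all 5 of these probes, with nostril B brighter each time and both nostrils on the same slide. It gave the largest difference for 23 of the 75 tested probes past 8-fold. Obp1f was 25.2-fold brighter in nostril B on the minus-strand probe and 24.1-fold on the other. Obp3 was 32.9-fold brighter and Obp2b 424-fold. LOC687446 was not well above background in nostril A, and its difference was at least 784-fold, counted against the lowest signal called well above background on that array. Lcn2 ran the other way in male 5, at 2.10-fold brighter in nostril A.

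Large differences were not confined to male 5. Without it 4 of the 7 member probes still passed 3 on the log2 scale, as did 0.232% of all tested probes. One of the 4, the plus-strand Obp1f probe, passed only against a value at the floor in male 6, where the bound was at least 5.06-fold. The minus-strand Obp1f probe was at least 11.4-fold brighter in nostril B of male 6 and 7.99-fold in female 8, and Obp3 was 7.28-fold brighter in nostril B of female 8. Obp2b was 14.4-fold brighter in nostril B of male 2 but 22.1-fold brighter in nostril A of female 3. LOC687446 was at least 90.5-fold brighter in nostril A of female 3 and 12.1-fold in nostril A of female 8. The nostrils of female 3 were read on different slides, and for 35 of the 75 probes past 8-fold that rat gave the largest difference.

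**Figure D2:**
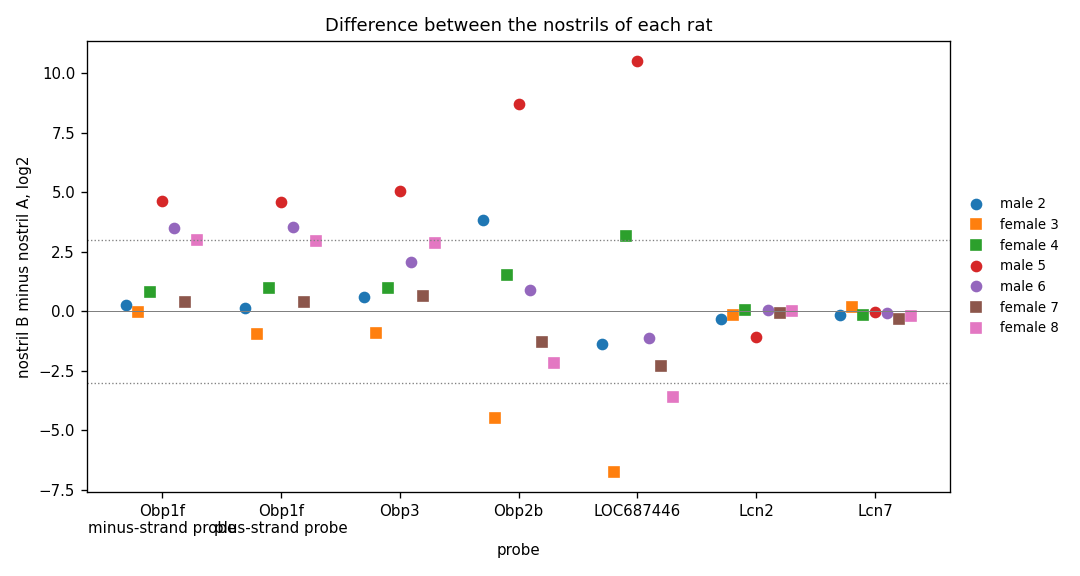
Difference between nostrils B and A on the log2 scale for each of the 7 rats with both nostrils, per member probe, with circles for males, squares for females and dotted lines at 8-fold in either direction. Male 5 is highest for Obp1f, Obp3, Obp2b and LOC687446, at 4.65 on the minus-strand Obp1f probe and, drawn against the floor in nostril A, 10.51 for LOC687446, which like Obp2b has rats on both sides of 0.

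**Figure D3:**
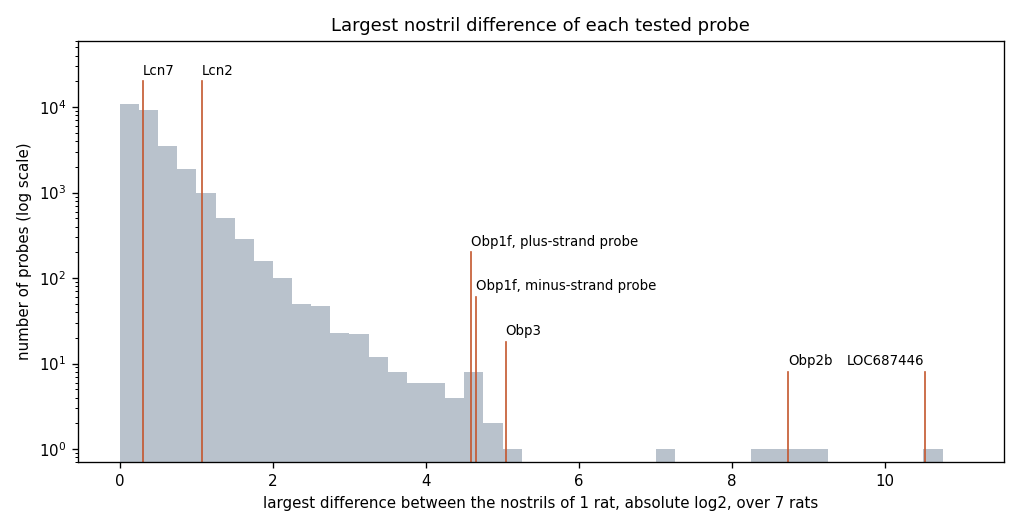
Number of tested probes, on a log scale, by the largest absolute log2 difference between the nostrils of a rat, with the 7 member probes marked by lines. The median probe is at 0.30, LOC687446 is farthest right at 10.51, a value set by the floor in the dimmer nostril, Obp2b is at 8.73, and Lcn7 is at 0.31, inside the bulk.

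Tested as a shared direction, nostril against nostril, none of this passed. With rat as a block limma called 0 of 27574 probes at 1% (0%), and 1623 probes (5.89%) had an unadjusted p under 0.05. Among the members, both Obp1f probes and Obp3 were in the latter group. Obp1f was higher in nostril B in 6 of 7 rats, by 1.81 ± 0.56 (SE) on the minus-strand probe and with an adjusted p of 0.781 by limma. Obp3 was higher in nostril B in the same number of rats, by 1.61 ± 0.58, and by 1.04 without male 5. Obp2b was brighter in B in 4 rats and LOC687446 in 2.

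Between rats of 1 sex, with the nostril difference as the error, limma's F-statistic called 768 of 27574 probes at 1% (2.79%), and 37.1% had an unadjusted p under 0.05. A second fit, with a term for slide, compared only pairs of rats of 1 sex that share a slide. It left out females 3 and 4 against females 7 and 8, and it called 1 probe. In the first fit 186 probes were called without female 8 and 245 without female 7. Of the 7 member probes 0 passed at 1%, and Lcn2 alone had an unadjusted p under 0.05, with F = 3.34 and an adjusted p of 0.124. The 4 arrays of females 3 and 4 lay between 5.64 and 5.92 for Lcn2 and the 4 of females 7 and 8 between 5.05 and 5.15, with no overlap. Females 7 and 8 filled slide 4 and females 3 and 4 lay on slides 1 and 2, so rat and slide cannot be told apart for that difference. When male 5, whose nostrils stood 1.07 apart, was left out, Lcn2 passed at 1% with F = 24.9 and an adjusted p of 0.00535 by limma, as 1 of 438 probes among 27578. In the fit of pairs that share a slide, with all rats, the F of Lcn2 was 0.86. That fit did not compare females 3 and 4 with females 7 and 8, so it does not bear on their difference.

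Correlations of nostril differences were chosen after seeing the data, so their p-values are descriptive. Among the 10 pairs of member genes, 2 passed an adjusted p of 0.05 for r. Differences between nostrils correlated over the 7 rats for Obp1f and Obp3, with Pearson r = 0.934 (exact permutation p = 0.0014, 0.0139 after Benjamini-Hochberg adjustment over 10 pairs) and Spearman rho = 0.964 (exact permutation p = 0.0028, adjusted 0.0278). Both had the same sign in all 7 rats, and r was 0.932 without males 5 and 6, the rats farthest from the median. For Obp2b and LOC687446 r was 0.911 (exact permutation p = 0.0060, adjusted 0.0298) and rho 0.893 (exact permutation p = 0.0123, adjusted 0.0615). In 5 of the 7 rats a nostril was not well above background for LOC687446, so those 5 differences are bounds and r depends on the values given to those nostrils. That relation was weaker without female 3 and male 5, at r = 0.501, and the sign was shared in 5 of 7 rats. For the other 8 pairs among these genes and Lcn2 the adjusted p of r was 0.138 or more by the exact permutation test. Obp3 had r = 0.768 with LOC687446 and 0.701 with Obp2b (adjusted p of 0.138 and 0.160 by the exact permutation test), and whether pairs differ in r was not tested. Lcn2 had r from -0.455 to -0.775 with the other 4 genes. Without the 2 rats farthest from the median, male 5 among them each time, r with Lcn2 was 0.574 for Obp1f, 0.557 for Obp3 and 0.251 for LOC687446, and -0.582 for Obp2b.

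Over rat means, where 3 pairs were set for testing, Obp1f and Obp3 gave r = 0.846 over 8 rats (exact permutation p = 0.0145, adjusted 0.0435) and rho = 0.619 (exact permutation p = 0.115, adjusted 0.173). The relation over rat means rested on male 6 and female 7, the lowest and highest rats, and without them r was 0.07. With slide means taken out r was 0.797 with an adjusted p of 0.0596 by the exact permutation test. Neither Obp1f nor Obp3 correlated with Lcn2 past the threshold, at r = 0.04 and -0.29.

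**Figure D4:**
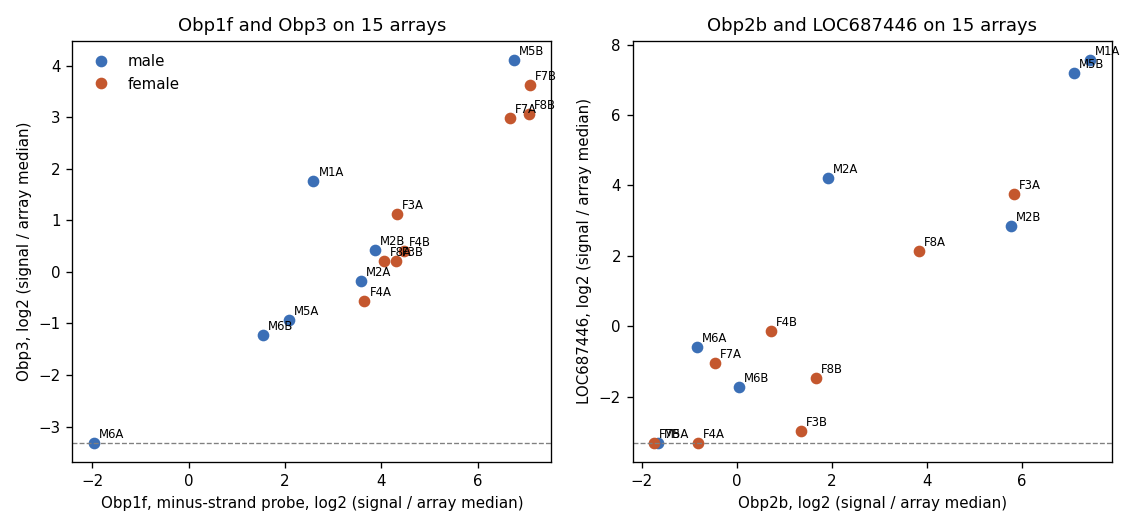
Level of Obp3 against Obp1f (left) and of LOC687446 against Obp2b (right) on the 15 arrays, each as log2 of the signal over the array median, with males in blue, females in orange and a dashed line at the floor. Each pair rises together, with r = 0.914 on the left and 0.899 on the right, and different arrays lead in the 2 panels.

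The probes most like Obp3 were those of its own family. Over the 8 rat means the 5 named genes with the highest correlation to Obp3 were LOC259245, LOC298116, Mup5, LOC259244 and LOC259246, all alpha-2u globulins or major urinary proteins by description, with r from 0.989 to 0.998. Over the 15 arrays they were also the 5 genes most like Obp1f, with r from 0.921 to 0.942, although Obp1f lies on another chromosome. Mup5, for example, stood at 1.29 and 5.83 in nostrils A and B of male 5, at 2.22 and 5.00 in female 8, at 4.71 and 5.31 in female 7, and was lowest in nostril A of male 6. In the 0.617 Mb of chromosome 5 between the Obp3 probe and the last of these genes the annotation placed 13 probes, of which 8 were tested. Of those 8, 7 passed the 8-fold nostril threshold, as did 0.272% of all tested probes. The exception was a probe of a predicted transcript with a range from -2.32 to -1.32. The stretch was bounded by genes picked for their likeness to Obp3, so this count was largely set by that choice. Alpha-2u globulin genes are close copies, and whether the Obp3 probe also reads its neighbors was not tested, so that its level may be shared among them. The same was not tested for the probes of Obp1f, Obp2b and LOC687446.

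Ranked over rat means, the genes most like Obp1f were others: LOC503337, Arih2, a ubiquitin ligase, Hmgn1, a nucleosome binding protein, Cnnm4 and Tparl, with r from 0.921 to 0.942. All 5 were far steadier than Obp1f: the widest of them across arrays, Cnnm4, lay between -1.30 and -0.48.

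Obp2b and LOC687446 share a stretch of chromosome 3 with other lipocalins. From Lcn8 to LOC687446 the annotation spans 1.488 Mb with 68 probes, 47 of them tested, and 4 of these passed the 8-fold nostril threshold. Beside Obp2b and LOC687446 these were a transcript described as similar to VNSP I, a vomeronasal secretory protein, and LOC681186, a hypothetical protein. The VNSP I transcript stood at 8.30 in male 1, -1.65 and 7.24 in nostrils A and B of male 5, and 4.58 and -1.08 in female 3, and it followed LOC687446 with r = 0.924 over the 15 arrays. LOC681186 reached 4.85 in male 1 and 3.77 in nostril B of male 5 and stayed at or below 2.24 on the other arrays, with r = 0.917. Erabp, now named Lcn5, an epididymal retinoic acid carrier, was detected on 3 arrays and reached 1.71 in male 1 and 0.42 in nostril B of male 5. Among the tested probes in this stretch below the threshold, the largest nostril difference was 1.40, and Bmyc, between Lcn6 and the VNSP I transcript, lay between 5.55 and 6.08 while Card9 ran from 1.27 to 2.57. The median largest nostril difference of the 47 tested probes was 0.33, close to the 0.30 of all probes.

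The RefSeq start regions of these genes show how alike the copies are. The last 100 bases before the annotated start are printed from build GRCr8, 5′ to 3′ on the strand of the gene, for a gene of each set and for Mup5, with the letters TATAAA in capitals where present.
Obp1f, chrX:45833906-45834005, plus strand: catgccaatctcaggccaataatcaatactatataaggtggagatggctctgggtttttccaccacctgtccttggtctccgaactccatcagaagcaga
Obp3, chr5:79640676-79640775, minus strand: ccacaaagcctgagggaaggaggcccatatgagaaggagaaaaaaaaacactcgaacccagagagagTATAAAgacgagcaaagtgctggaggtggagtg
Mup5, chr5:79999696-79999795, minus strand: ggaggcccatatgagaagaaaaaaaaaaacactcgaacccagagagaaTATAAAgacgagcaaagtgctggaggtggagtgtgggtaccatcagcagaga
Obp2b, chr3:28980086-28980185, plus strand: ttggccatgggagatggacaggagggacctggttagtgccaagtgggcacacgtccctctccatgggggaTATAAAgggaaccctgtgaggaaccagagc

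Over the 250 bases before the start, Obp3 and Mup5 were identical at 225 of 231 aligned bases. Obp2b and Obp2a, its neighbor in RefSeq, were identical at 231 of 233. The letters TATAAA, searched on both strands, occurred in the last 100 bases before the start for Obp3, Mup5, Obp2b and Obp2a, and in 5.78% of the 33469 windows of 100 bases in the table. The 100-base windows of Obp1f and Lcn2 held no match. A match describes letters and was not tested as a site.

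A wider list of the lipocalin family held 30 genes. Leaving out the member probes, 17 of these had a probe, with 21 probes and 10 tested. The median range of the 10 over rats was 1.35 on the log2 scale and that of all tested probes 0.47, and the median largest nostril difference was 1.54 against 0.30. None of the 10 passed at 1% between the sexes, between rats or between nostrils. The 4 that passed the 8-fold nostril threshold by probe were alpha-2u globulins, LOC259244, LOC259245, LOC259246 and Mup5. Ptgds, the prostaglandin D synthase that also carries retinoids, lay between 7.37 and 9.03, Apod, a carrier of arachidonic acid and steroids, between 1.99 and 4.08, Rbp4, the retinol carrier of blood, between 2.82 and 3.87, and Apom, the sphingosine phosphate carrier of lipoproteins, between 2.50 and 2.95. Mup4, the Rup2 urinary protein, the von Ebner's gland protein Vegp1 and Ambp were detected on 0 arrays.

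On a list of other small carriers of nasal mucus, 9 of 14 probes were tested, 0 passed at 1% in any of the 3 comparisons and 0 passed the 8-fold nostril threshold. Scgb1c1, a secretoglobin of the olfactory glands, lay between 11.63 and 12.26, and Plunc, now Bpifa1, a secreted lipid-binding defense protein, between 11.84 and 12.26. The 2 with the widest range over rats were Ttr, detected on 7 arrays and reaching -0.97, and Apoa1, between -2.02 and -0.84.

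Markers of the tissues that could have been dissected along were read beside these results. The summed signal of 9 tested probes for Bowman's and nasal glands differed 1.41-fold between the extreme arrays. Scgb1c1 and Plunc made up most of that sum, so it says little about the dimmer gland probes. Of the 9 probes, 3 passed the 8-fold nostril threshold, Dmbt1, Muc5ac and Pip. Aqp5, the water channel of gland cells, lay between 8.16 and 8.44. Dmbt1, a secreted mucosal scavenger protein, moved with LOC687446 at r = 0.880 over the 15 arrays. It stood at 6.70 in male 1 and at the floor and 5.04 in nostrils A and B of male 5. Muc5ac, the mucin of goblet cells, had a highest level of 3.86 and r = 0.336 with LOC687446. Sums for the 4 tested vomeronasal probes were 45.4 and 45.5 times the array median in nostrils A and B of male 5. Trpc2, the vomeronasal transduction channel, was 2.37 in male 1 and between 0.10 and 1.15 elsewhere on its well detected probe. Trpc2 was thus a small part of the vomeronasal sums in male 5, which mostly reflect the other probes. Sums over arrays differed 1.32-fold for mature olfactory neurons, 1.21-fold for sustentacular cells and 1.55-fold for respiratory ciliated cells. None of the marker probes passed at 1% between the sexes or between nostrils. Between rats of 1 sex Amy1 of the gland list, Sult1a1 of the sustentacular list, Hbb and Alas2 of the blood list, and Trpc2 and Gnao of the vomeronasal list passed, and 0 probes of the neuron, neutrophil and ciliated lists, in the fit without a slide term. LOC690507, described as similar to vomeromodulin, a protein of vomeronasal mucus, stood at 5.79 and the floor in nostrils A and B of male 6, and its r with LOC687446 was -0.157. The part of gland or vomeronasal tissue in the levels of Obp1f, Obp3, Obp2b and LOC687446 was not tested.

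By correlation over rat means the 5 named genes most like Lcn2 were Abca1, the cholesterol exporter, Klf5, an epithelial transcription factor, Tmem56, Nfkbia, the inhibitor of NF-kappa B that is itself induced by it, and RGD1304598, with r from 0.944 to 0.958 over 8 rats. Over the 15 arrays Nfkbia was first among named genes, at r = 0.921, with levels from 6.15 to 6.53. The other Nfkbia probe, with levels from 0.80 to 1.71, had r = 0.07, so the 2 probes of that gene disagreed. Of the 19 probes on a list of receptors and regulators of Lcn2, 17 were tested and 0 passed at 1% in any comparison. Slc22a17, the Lcn2 receptor, lay between 9.75 and 10.04 and Lrp2, the endocytic receptor megalin, between 5.84 and 6.50. Those with the widest range over rats were Cebpe, a granulocyte transcription factor, and Il1b, a cytokine that induces Lcn2.

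Among 40 probes for innate defense and acute phase genes, 32 were tested and 1 passed at 1%, Cxcl1, a neutrophil-attracting chemokine, between rats of 1 sex (F = 14.2, adjusted p = 0.00848 by limma), where 2.79% of all tested probes passed. Cxcl1 was 2.10 and 2.06 in nostrils A and B of female 3, 0.13 and 1.97 in female 4, -0.94 and -1.30 in female 7 and -0.86 and -0.91 in female 8, so females 3 and 4 lay above females 7 and 8 as they did for Lcn2, and here too rat and slide cannot be told apart. The rats came from 2 suppliers, which the labels used for grouping do not tie to single rats, so the part of supplier was not tested here for either gene. The study itself lists Cxcl1 among the genes that differed between its suppliers. The r of Cxcl1 with Lcn2 over the 15 arrays was 0.708, that of Cxcl2 0.718 and that of Ccl20 0.806, while that of Tlr4, a sensor of bacterial lipopolysaccharide, was -0.484. Pap, now Reg3b, and Cxcl2 had the widest range over rats on this list, at 4.64 and 4.57, with adjusted p of 0.333 and 0.0109 by limma. Summed signals of 5 tested neutrophil probes, cells that also store Lcn2, were 59.2 and 30.8 times the array median in nostrils A and B of male 5, where Lcn2 was 2.10-fold apart, and r with Lcn2 was 0.604 for S100a8, 0.529 for S100a9 and 0.02 for Mmp9. In male 2 the sums were 66.2 and 28.5, where Lcn2 was 1.25-fold apart. Their part in the level of Lcn2 was not tested. Blood markers differed 23.9-fold in summed signal between arrays, and r with Lcn2 was 0.07 for Hbb.

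**Figure D5:**
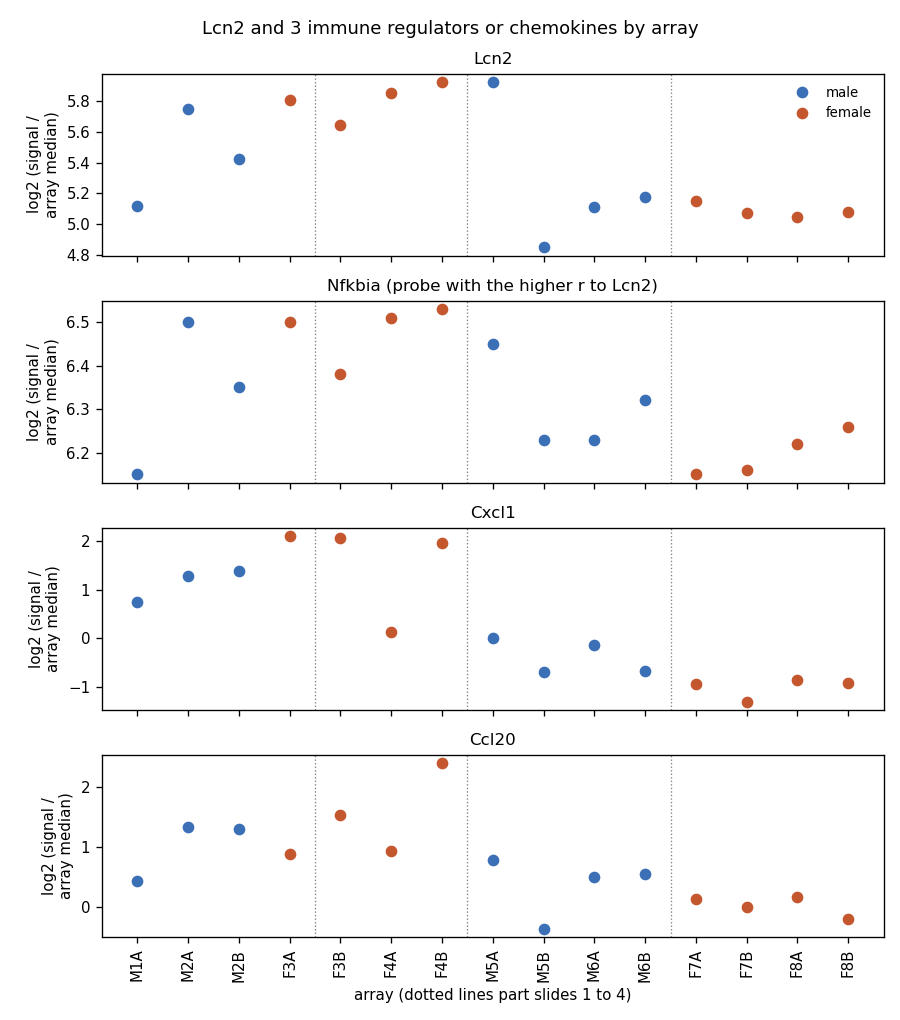
Level of Lcn2, of 1 of the 2 Nfkbia probes, of Cxcl1 and of Ccl20 on each array, as log2 of the signal over the array median, with males in blue, females in orange, dotted lines between slides 1 to 4 and a separate vertical scale per panel. Lcn2 and Cxcl1 are lower on the 4 arrays of females 7 and 8 than on the 4 of females 3 and 4. Nfkbia and Ccl20 are lower there than on nostril B of female 4, which is the highest array for Lcn2. Lcn2 spans 4.85 to 5.92 while Nfkbia spans 6.15 to 6.53.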

How the data were processed

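Total RNA of each nostril was labelled with Cy3 and hybridized to a one-color Agilent 44K array. Per the file headers the authors extracted signals with Agilent Feature Extraction, and the deposited intensity values are background-subtracted and detrended but not scaled between arrays. Flags of the software served to call detection. The authors also deposited a ratio table, in which each signal is divided by the array median and the probe median. Set against the scanner signals over 25133 probes, 99.9% of its values lay within 2% of that formula, and it served as an alternative only. Gene names and rn3 positions come from the array annotation, and current names from RefSeq by accession.

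Non-uniform and outlier spots (61 to 175 per array) were left out, spots of a probe averaged, each array scaled to its median signal, a floor set at 0.1 of that median and log2 taken. Probes well above background on at least 7 arrays were tested with limma 3.58.1 in R 4.3.3 (lmFit, eBayes with trend), two-sided, with Benjamini-Hochberg adjustment over all tested probes at 1%. Of these 27625 probes, 51 lacked a spot on some array and were left out of tests on single arrays. Sexes were compared on rat means, nostrils with rat as a block, and rats of 1 sex by F. The fits were checked on simulated data. Correlations used exact two-sided permutation over rats, with the probe of highest mean signal standing for Obp1f, and were called at an adjusted p under 0.05. Fold differences against an array where the probe was not well above background are bounds. Among other lists, genes named are the 2 of widest range over rats, any past 1%, and some chosen after their values were seen. Precision is limited by the number of rats. The supplier of each rat is not in the labels used for grouping, and suppliers were not compared. The members and gene lists were chosen with earlier results of these data known, and the nostril threshold, the chromosome windows and the correlations of nostril differences were chosen after seeing the data.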

Additional observations from a re-analysis of the deposited data

How the results depend on the processing

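Member probes past 1% numbered 0 between the sexes and 0 between nostrils under every alternative run: 75th percentile scaling, normexp with quantile normalization, the ratio table, other filters and floor, slide as a block, 15 independent arrays, the methods' t-test, limma without trend and leaving out each rat (for nostrils, the scaling, no replicate block and the leave-outs). Between rats of 1 sex the count was 0 except without male 5, a range of 0 to 1 over the leave-outs. The 1 was Lcn2, in a fit that called 438 of 27578 probes. Expressed members numbered 6, and 3 when detection on all 15 arrays was asked for and 7 with the software's call of positive and significant signal. Over all probes, calls between the sexes on rat means numbered 12. They were 8 with the methods' t-test, 6 on the ratio table and 3 with detection on at least 11 arrays. On single arrays they numbered 468 with slide as a block and 1031 taken as independent. Calls between rats were 768, and 1305 under 75th percentile scaling, 1572 with normexp, 356 on the ratio table and 186 to 898 without each rat. The fit with a slide term called 1, but it compared only rats that share a slide, so 768 and 1 do not count the same test. The count of members past 8-fold between nostrils was 5 under 75th percentile scaling, normexp with quantile normalization and a floor of 0.25 of the median, and 4 to 5 without each rat, while probes past it in all numbered 75 as reported, 20 with normexp, 41 with that floor and 45 without female 3.

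Without each rat in turn the sex difference of Lcn2 ranged from -0.0088 to 0.26, the nostril difference (B minus A) of LOC687446 from -1.98 to 0.89 and that of Obp2b from -0.28 to 1.92, each crossing 0. With slide as a block the sex difference of Obp2b turned to 0.39, that of Obp3 moved from 1.08 to 0.32 and that of Lcn2 from 0.14 to 0.44. The correlation of Obp1f with Obp3 over rats no longer reached an adjusted p under 0.05 with slide means taken out (0.797) and without the 2 farthest rats (0.074). That of Obp3 with Lcn2 was 0.067 with slide means taken out and -0.893 without the 2 farthest rats (unadjusted exact permutation p = 0.0347), and that of Obp1f with Lcn2, 0.038 in all 8 rats, was 0.631 with slide means taken out (adjusted exact permutation p = 0.198) and -0.060 without the 2 rats. The causes were not tested. No paired analysis was possible of females against males, because replicate numbers do not pair them. The fit with no replicate block called 0 member probes between nostrils. With 8 rats and 1 array per nostril, and no repeat array of an RNA, differences between nostrils include the error of a single array.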
